A study of Mus musculus with 4 samples.

Results

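Galectins and Ceacams are sugar-binding and adhesion proteins of the gut. Their genes were followed in colon tumours of mice given an antibody against MAdCAM-1 and in tumours of mice given control IgG. The set held 6 genes chosen by symbol in the gene count table (Lgals1, Lgals3, Lgals4, Lgals9, Ceacam1 and Ceacam10), and all 6 were present among 14979 genes and had enough tags to be tested. The tumours arose in the AOM/DSS model, in which the carcinogen azoxymethane is followed by dextran sulfate sodium, a chemical that inflames the colon. All mice carried AOM/DSS tumours. The MAdCAM1 group was treated with antibody to MAdCAM-1, the vessel adhesion molecule that guides leukocytes into the gut, and the IgG group with an IgG antibody as control. There were 2 mice a group and a single library from each, called MAdCAM1 1, MAdCAM1 2, IgG 1 and IgG 2. Strain, age, dose and timing are not given in the sources used here. Capped 5′ ends of RNA were counted by CAGE (cap analysis of gene expression), with 14850923 and 15895228 tags in the MAdCAM1 libraries and 16891234 and 15727936 tags in the IgG libraries. Levels are in CPM (TMM-scaled tags), and a positive log2 fold change means a higher level in the MAdCAM1 group.

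Galectins bind β-galactoside sugars on glycoproteins and glycolipids and cross-link them at the cell surface. They reach the outside of the cell without a signal peptide and also act inside it. Galectin-4 (Lgals4) is a gut epithelial galectin with a pair of sugar-binding domains in one chain and takes part in apical membrane traffic. Galectin-3 (Lgals3), also known as the macrophage antigen Mac-2, is made by epithelium and by macrophages. Galectin-9 (Lgals9) binds the immune receptor Tim-3, and galectin-1 (Lgals1) is made by fibroblasts, endothelium, smooth muscle and leukocytes. Ceacams belong to the immunoglobulin superfamily. Ceacam1 spans the membrane of epithelial cells and some leukocytes, binds itself between neighbouring cells and carries inhibitory tyrosine motifs, whereas mouse Ceacam10 is a secreted member.

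CAGE counts the RNAs that start at promoters, and the windows at the RefSeq start sites of both Ceacam members were nearly the same sequence. Ceacam1 (chromosome 7, 25161128 to 25177257, minus strand, GRCm39) and Ceacam10 (chromosome 7, 24476598 to 24484082, plus strand) lie on the same chromosome. Promoter sequences are from RefSeq (table of GRCm38.p6), and each window had 1 exact match in GRCm39, whose coordinates are given. The windows of 300 bases (250 before the start site and 50 after it) aligned over 282 bases without internal gaps and were identical at 262 of them (92.9%), with a longest identical run of 114 bases. The 150 aligned bases upstream of both RefSeq start sites are shown because of this likeness, with capitals at the 4 bases where they differ. Whether it has a part in the levels of these genes was not tested. They cover chr7:25177069-25177218 (minus strand) for Ceacam1 and chr7:24476442-24476591 (plus strand) for Ceacam10.
Ceacam1: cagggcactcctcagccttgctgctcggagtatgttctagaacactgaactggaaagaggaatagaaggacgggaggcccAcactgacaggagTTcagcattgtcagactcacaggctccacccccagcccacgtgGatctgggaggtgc
Ceacam10: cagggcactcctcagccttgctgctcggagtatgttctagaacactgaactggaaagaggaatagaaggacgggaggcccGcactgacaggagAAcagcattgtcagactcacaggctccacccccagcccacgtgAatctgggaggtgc

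Both windows hold the E-box CACGTG, which is its own reverse complement, with its first base 38 bases before the RefSeq start of Ceacam1 and 20 bases before that of Ceacam10. Of 27025 RefSeq promoters of the same length, 7.24% hold it. The other motifs searched on both strands were the TATA box TATAAA, the GC box GGGCGG, the interferon response element core, the AP-1 element TGANTCA, the NF-kB element and the CDX element TTTATNG. None of these 6 was found in either Ceacam window. The GENCODE canonical transcript of Ceacam1 starts 207 bases before the RefSeq start, and that of Ceacam10 starts 6 bases after the first of its 2 RefSeq starts, the one used here. The Ceacam1 stretch shown above, with its E-box, therefore lies after the canonical start and is a promoter stretch only for the RefSeq start. The count table does not say which start site the tags came from. Resemblance of the transcripts at their 5′ ends, where CAGE reads of 75 nt begin, depended on the start of Ceacam1. The first 75 bases of Ceacam1 from the RefSeq start differed at 10 positions from their best ungapped match in Ceacam10 and at 9 from that in Ceacam2. From the canonical start of Ceacam1 the differences were 43 and 42 of 75, against 41 between Lgals4 and Lgals9. The first 75 bases of the canonical Ceacam10 transcript differed at 11 positions from Ceacam1 and at 5 from Ceacam2, another close copy on chromosome 7 whose level was not analysed here. How reads with several possible origins were counted is not given in the sources used here, so the division of tags between these genes is uncertain.

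Promoters were found for 5 of the 6 members, all but Lgals1. Lgals9 (chromosome 11, 78853800 to 78875798, minus strand) held the interferon response element core at 2 places, starting 55 bases before and 16 bases after its RefSeq start, against 3.49% of all promoters with at least 1 match. The GENCODE canonical transcript of Lgals9 starts 48 bases before the RefSeq start, inside the first of these matches. The 150 bases before the RefSeq start of Lgals9 (chr11:78875751-78875900, minus strand) are shown because it is the member with this element, with the first match in capitals.
Lgals9: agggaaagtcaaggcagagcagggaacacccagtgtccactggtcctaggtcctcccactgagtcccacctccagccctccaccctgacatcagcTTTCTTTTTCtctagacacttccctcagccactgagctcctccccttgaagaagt

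The window of Lgals3 (chromosome 14, 47605208 to 47623624, plus strand) held the GC box at 2 places, 7 bases before and 5 bases after its start site. That of Lgals4 (chromosome 7, 28531804 to 28541281, plus strand) held it once, 30 bases after the start site, and 35.9% of all promoters hold it. The RefSeq start of Lgals4 lies 1415 bases after that of the GENCODE canonical transcript, and the RefSeq start of Lgals3 lies 29 bases before its canonical one. The other motifs searched were found in neither window. A match describes letters in the window and does not show that a factor binds there.

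The epithelial galectin gene Lgals4 and both Ceacam genes had higher levels in each MAdCAM1 library than in either IgG library. Lgals4 was 2.76-fold higher, Ceacam10 2.34-fold and Ceacam1 2.00-fold. The values of Lgals3, Lgals9 and the stromal gene Lgals1 overlapped between the groups. None of the 6 passed edgeR's quasi-likelihood test, fitted on 14331 genes, after Benjamini-Hochberg adjustment over all of them (threshold 0.05), and 0% of all genes passed it. The 3 members without overlap compare with 19.7% of all genes tested that were higher in the same way, and 0 members were lower without overlap, against 18.7% of all genes. The same 3 members had an unadjusted p under 0.05 in the quasi-likelihood test, which 5.09% of all genes reached on the higher side. The p-values set each difference against a spread estimated from these few mice, and 0 genes in the whole table were called by limma-voom.

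Lgals4 (ENSMUSG00000053964) stood at 972 and 964 CPM in MAdCAM1 1 and 2, against 454 and 247 CPM in IgG 1 and 2. The MAdCAM1 libraries were almost level and above both IgG libraries, of which IgG 2 was the lower. The mean was 968 ± 5.22 CPM in the MAdCAM1 group and 350.5 ± 146 CPM in the IgG group (SD, n = 2 each). The log2 fold change was 1.47 (SE 0.34, 95% interval 0.55 to 2.39; edgeR quasi-likelihood adjusted p = 0.671). DESeq2 called the gene (adjusted p = 0.00437), as did edgeR's exact test (adjusted p = 0.0406). DESeq2 called 1.53% of all genes higher and the exact test 1.06%, and 2 of the 6 members, Lgals4 and Ceacam10, were called by both. Both tools used the same counts as the main test, so that these calls are not independent of each other. Lgals6, a close copy of Lgals4 that some mouse strains carry, was not analysed here.

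**Figure D1:**
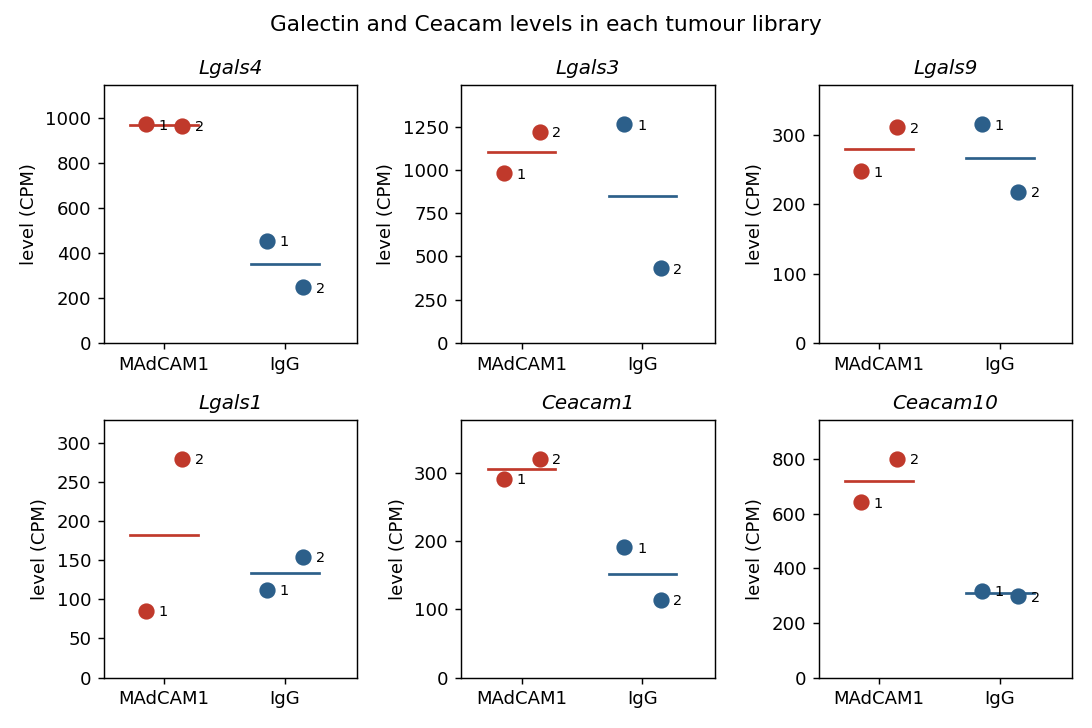
Level (CPM, y axis from 0) of each of the 6 genes in each library; points are libraries numbered by replicate, with MAdCAM1 in red at left and IgG in blue at right, and the line is the group mean. For Lgals4, Ceacam1 and Ceacam10 both MAdCAM1 points lie above both IgG points, while Lgals3, Lgals9 and Lgals1 overlap.

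Ceacam10 (ENSMUSG00000054169) stood at 641 and 799.5 CPM in the MAdCAM1 libraries, against 319 and 297 CPM in the IgG libraries. The IgG libraries were close to each other, MAdCAM1 2 was the highest library, and the groups did not overlap. The mean was 720.4 ± 112 CPM in the MAdCAM1 group and 308 ± 15.2 CPM in the IgG group (SD, n = 2 each), a log2 fold change of 1.23 (SE 0.18, 95% interval 0.74 to 1.71). Its adjusted p was 0.640 by the quasi-likelihood test of edgeR, 1.45e-05 by DESeq2 and 0.0112 by edgeR's exact test.

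Ceacam1 (ENSMUSG00000074272) stood at 291.5 and 320.4 CPM in the MAdCAM1 libraries, against 191 and 114.5 CPM in the IgG libraries. Both MAdCAM1 libraries were again above both IgG libraries, and IgG 2 was the lowest. The log2 fold change was 1.003 (SE 0.29, 95% interval 0.21 to 1.79), and the gene was called neither by edgeR's quasi-likelihood test (adjusted p = 0.691) nor by DESeq2 (adjusted p = 0.101) or edgeR's exact test (adjusted p = 0.313). Within each library the tags of Ceacam1 were 0.455 and 0.401 times those of Ceacam10 in MAdCAM1 1 and 2, and 0.599 and 0.385 times in IgG 1 and 2. This ratio overlapped between the groups, with both MAdCAM1 values inside the IgG range (difference of log2 ratios −0.17, exact permutation p = 1, two-sided). With 2 libraries a group, the smallest p that this test can give is 0.333.

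Lgals3 (ENSMUSG00000050335) was the most abundant member, at rank 105 of 14331 genes by mean CPM. CAGE counts the 5′ end of each RNA, so transcript length does not enter these tag counts. It stood at 982 and 1223 CPM in the MAdCAM1 libraries, against 1265 and 432 CPM in the IgG libraries. IgG 1 was the highest and IgG 2 the lowest of all, so that the IgG range enclosed the MAdCAM1 values. The log2 fold change was 0.38 (SE 0.55, 95% interval −1.13 to 1.89; edgeR quasi-likelihood adjusted p = 0.926), and it was −0.20 without IgG 2. The interval leaves room for changes of over 2-fold in either direction.

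Lgals9 (ENSMUSG00000001123) varied least among the members, with a 1.45-fold range over the 4 libraries. It stood at 248 and 311 CPM in the MAdCAM1 libraries, against 315 and 218 CPM in the IgG libraries. The MAdCAM1 values lay inside the IgG range, and the log2 fold change was 0.07 (SE 0.25, 95% interval −0.62 to 0.75; edgeR quasi-likelihood adjusted p = 0.974). It was −0.03 with scaling by library size only, −0.18 without IgG 2 and −0.11 without MAdCAM1 2, and so had no stable direction.

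Lgals1 (ENSMUSG00000068220; chromosome 15, 78810875 to 78814670, plus strand), the stromal galectin, stood at 85.6 and 279 CPM in the MAdCAM1 libraries, against 112 and 154.5 CPM in the IgG libraries. MAdCAM1 1 was the lowest and MAdCAM1 2 the highest of all 4 libraries, so that the MAdCAM1 range enclosed both IgG values. The log2 fold change was 0.45 (SE 0.61, 95% interval −1.22 to 2.12; edgeR quasi-likelihood adjusted p = 0.915), and it was −0.64 without MAdCAM1 2. The fewest tags of any member in a library were 1223, for Lgals1 in MAdCAM1 1, at which counting error is 2.86%. Counting error is therefore small beside the 3.26-fold difference between the MAdCAM1 mice.

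**Figure D2:**
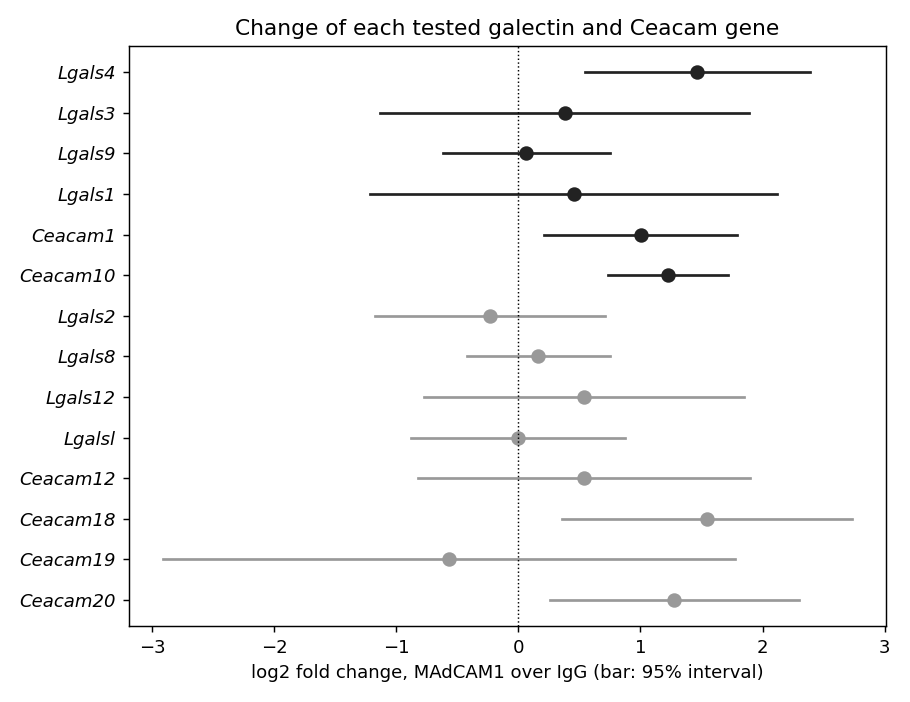
Log2 fold change (x axis, MAdCAM1 over IgG) of the 6 members in black and of the other tested galectin and Ceacam genes in grey; points are edgeR estimates and bars unadjusted 95% intervals, from 2 libraries a group. The bars of Lgals4, Ceacam1, Ceacam10, Ceacam18 and Ceacam20 lie above 0 and those of the other genes cross it.

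Epithelial and stromal galectins were set against each other as ratios of tags within each library, in which the scaling cancels. Lgals4 had 11.3 and 3.46 times the tags of Lgals1 in MAdCAM1 1 and 2, against 4.05 and 1.60 times in IgG 1 and 2. MAdCAM1 1 had the highest ratio and IgG 2 the lowest, and MAdCAM1 2 lay between the IgG libraries, so that the groups overlapped. The log2 ratio averaged 2.65 ± 1.21 in the MAdCAM1 group and 1.35 ± 0.95 in the IgG group (SD, n = 2 each). Their difference of 1.299 did not exceed the spread between mice (exact permutation p = 0.667, two-sided; adjusted p = 1 over the 4 ratios computed).

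The ratios of the other galectins overlapped as well. Lgals3 had 11.5 and 4.38 times the tags of Lgals1 in the MAdCAM1 libraries, against 11.3 and 2.80 times in the IgG libraries (difference of log2 ratios 0.34, exact permutation p = 0.667). Lgals9 had 2.89 and 1.11 times the tags of Lgals1 in the MAdCAM1 libraries, against 2.81 and 1.41 times in the IgG libraries (difference −0.15, exact permutation p = 1). In both groups the library numbered 1 had the higher ratio of each galectin to Lgals1.

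**Figure D3:**
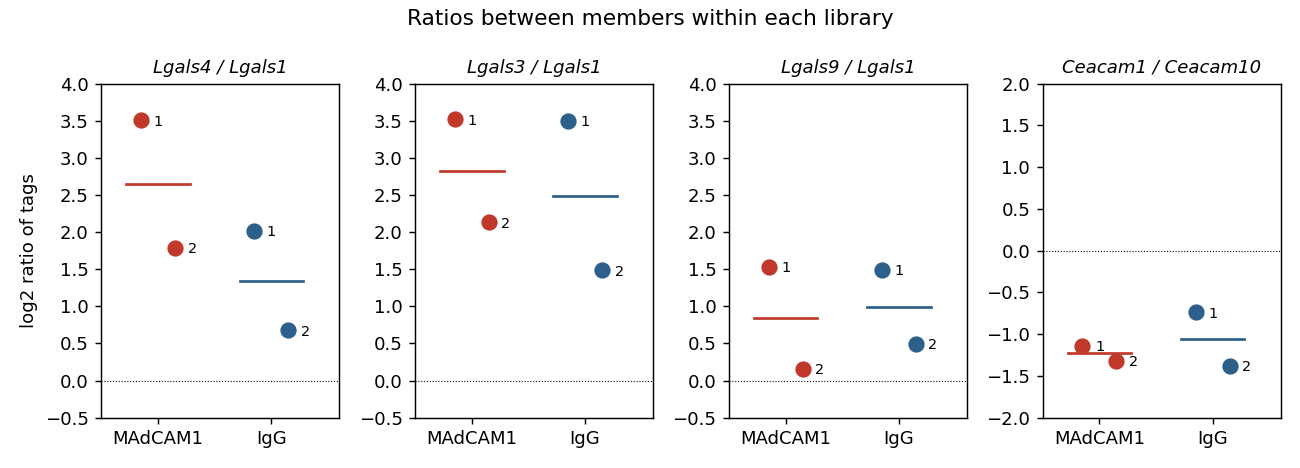
Log2 ratio of tags (y axis) of Lgals4, Lgals3 and Lgals9 to Lgals1 and of Ceacam1 to Ceacam10 in each library, MAdCAM1 in red at left and IgG in blue at right; numbers mark replicates and lines group means. The MAdCAM1 and IgG points overlap in all 4 panels.

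The libraries also differed in the summed levels of cell type markers. Markers of colon epithelium (15 of 15 listed genes present, none at 0 tags) summed to 12490 and 10890 CPM in the MAdCAM1 libraries, against 7760 and 6783 CPM in the IgG libraries. Of the 15, 14 were higher without overlap, against 19.7% of all genes tested. The epithelial gene Phgr1 had the smallest p, at 615 and 519 CPM in the MAdCAM1 libraries, against 200.3 and 140 CPM in the IgG libraries. DESeq2 called it (adjusted p = 2.65e-07), as did edgeR's exact test (adjusted p = 0.000369), but edgeR's quasi-likelihood test did not (adjusted p = 0.640). The keratin gene Krt20 stood at 293.5 and 365.5 CPM, against 134.5 and 96.7 CPM in the IgG libraries. Markers of fibroblasts (15 of 15 present) summed to 576 and 2035 CPM in the MAdCAM1 libraries, against 621.5 and 1472 CPM in the IgG libraries, and macrophage markers (11 of 14) to 844 and 2980 CPM, against 1382 and 1511 CPM. Smooth muscle markers (8 of 10) were at 141 and 2030 CPM in the MAdCAM1 libraries, against 1809 and 143 CPM in the IgG libraries. None of these markers was at 0 in a library. Neutrophil markers (9 of 9 present, 1 of them at 0 tags in a library) summed to 208 and 753 CPM in the MAdCAM1 libraries, against 315 and 588 CPM in the IgG libraries. Among 8 tested, 4 were lower without overlap (18.7% of all genes), with a median log2 fold change of −0.99. Of these 4, Camp and Ngp had few tags in the MAdCAM1 libraries, at 1 and 3 for Camp and 2 and 19 for Ngp. B and plasma cell markers (6 of 9 present) summed to 46.6 and 538.5 CPM, against 20.8 and 41.5 CPM in the IgG libraries. Jchain alone stood at 42.7 and 449.6 CPM in the MAdCAM1 libraries, against 8.14 and 35.4 CPM in the IgG libraries. T cell markers (7 of 10 present, 1 of them at 0 tags in a library) summed to 23.5 and 52.7 CPM, against 38.8 and 57.9 CPM. What part these cell types had in the members' levels was not tested. In bulk tissue, more cells of a type and more RNA per cell cannot be told apart.

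Relative to the summed epithelial markers, Lgals4 and Ceacam10 remained higher. Lgals4 had 77.8 and 88.6 tags per 1000 epithelial marker tags in the MAdCAM1 libraries, against 58.5 and 36.4 in the IgG libraries. Ceacam10 had 51.3 and 73.4, against 41.1 and 43.8 in the IgG libraries. Neither gene overlapped between the groups on this scale, on which the share of all genes without overlap was not computed. The result holds for the sum, whose markers did not change alike. Phgr1 was 3.33-fold and Krt20 2.85-fold higher, but Cldn7 1.67-fold and Vil1 1.64-fold. Lgals4 at 2.76-fold and Ceacam10 at 2.34-fold lay between these markers, so a rise beyond that of every epithelial marker was not seen.

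Ceacam1 overlapped once set against epithelial tags, with 23.3 and 29.4 per 1000 in the MAdCAM1 libraries and 24.6 and 16.9 in the IgG libraries. Lgals3 also overlapped, with 78.6 and 112 per 1000 in the MAdCAM1 libraries and 163 and 63.7 in the IgG libraries. Lgals9 was lower in both MAdCAM1 libraries on this scale, with 19.8 and 28.6 per 1000, against 40.65 and 32.2 in the IgG libraries. In CPM Lgals9 overlapped between the groups, while the epithelial sum that divides it was 12490 and 10890 CPM, against 7760 and 6783 CPM in the IgG libraries. These relative values carry no test, and no share over all genes was computed for them.

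Lgals1 had the library order of some marker sums and not of others. MAdCAM1 2 was highest and IgG 2 next for Lgals1 and for fibroblast, macrophage, neutrophil and endothelial markers. Endothelial markers (8 of 10 present) summed to 28.8 and 120 CPM in the MAdCAM1 libraries, against 54.2 and 81.6 CPM in the IgG libraries. Per 1000 macrophage marker tags, Lgals1 had 101.5 and 93.65 tags in the MAdCAM1 libraries, against 81.1 and 102 in the IgG libraries, a range of 1.26-fold over all 4. Per 1000 fibroblast marker tags it had 149 and 137, against 180.2 and 105 in the IgG libraries, a range of 1.72-fold. Smooth muscle markers had another order, and per 1000 of their tags Lgals1 had 609 and 137.5 in the MAdCAM1 libraries, against 61.9 and 1083 in the IgG libraries, a range of 17.5-fold. Against endothelial, neutrophil and T cell markers Lgals1 was higher in both MAdCAM1 libraries, and against B and plasma cell markers it was lower in both. No share over all genes was computed on these scales either.

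**Figure D4:**
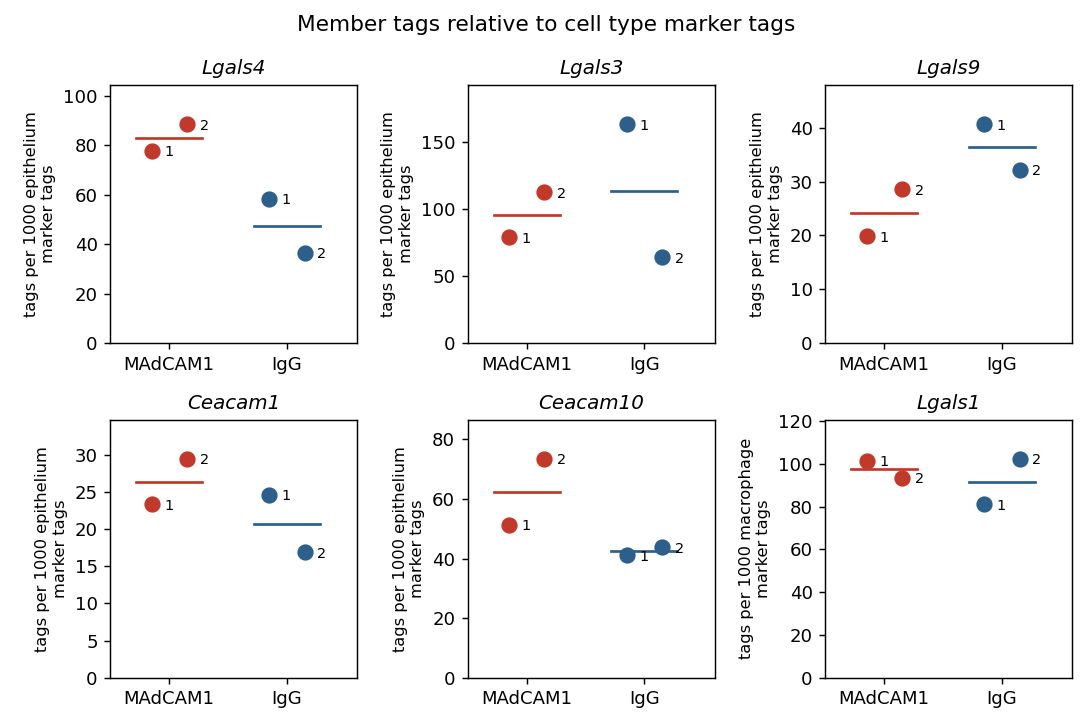
Tags of a member per 1000 tags summed over epithelial markers (5 panels) or, for Lgals1, macrophage markers (y axes from 0) in each library, MAdCAM1 in red at left and IgG in blue at right; numbers mark replicates and lines group means. Lgals4 and Ceacam10 lie higher and Lgals9 lower in both MAdCAM1 libraries, and Lgals3, Ceacam1 and Lgals1 overlap.

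Summed smooth muscle markers were close in MAdCAM1 2 and IgG 1 and close in MAdCAM1 1 and IgG 2, and the members are given within these pairs. The pairs were not alike in the other sums, such as those of fibroblast and macrophage markers given above. Lgals4 was 2.12-fold in MAdCAM1 2 over IgG 1 and 3.94-fold in MAdCAM1 1 over IgG 2. Ceacam10 was 2.51-fold and 2.16-fold in the same pairs, and Ceacam1 1.68-fold and 2.54-fold. Since these genes did not overlap between the groups, any pairing gives folds above 1. Lgals3 was 0.968-fold and 2.27-fold, Lgals9 0.986-fold and 1.14-fold, and Lgals1 2.49-fold and 0.554-fold, so that the pairs of these galectins disagreed in direction.

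The remaining galectin genes showed no separation of the groups. Of 8 listed, 5 were present and 4 had enough tags to be tested, with a median log2 fold change of 0.08 against 0.00 over all genes (−0.0012). Of the 4, 0 lay apart without overlap (19.7% of all genes were higher and 18.7% lower in this way). Lgals2, a gut epithelial galectin, stood at 31.4 and 20.5 CPM in the MAdCAM1 libraries, against 37.6 and 23.6 CPM in the IgG libraries. Lgals8, which marks damaged vesicles, stood at 39.4 and 55.7 CPM, against 41.2 and 43.8 CPM in the IgG libraries. Lgals12, an adipocyte galectin, and the galectin-related gene Lgalsl had log2 fold changes of 0.54 (SE 0.49) and 0.00 (−0.0014, SE 0.32). Lgals7, a galectin of stratified epithelium, had 3 and 10 tags in the MAdCAM1 libraries and 8 and 5 in the IgG libraries and was too low to be tested.

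Of the 13 other Ceacam genes listed, 4 were present and tested. Of these, 2 were higher in both MAdCAM1 libraries, as were 19.7% of all genes tested. Ceacam20, a brush border member of the family, stood at 51.0 and 52.6 CPM in the MAdCAM1 libraries, against 28.5 and 14.2 CPM in the IgG libraries. Its log2 fold change was 1.28 (SE 0.37; edgeR quasi-likelihood adjusted p = 0.691). Ceacam18 had 53 and 48 tags in the MAdCAM1 libraries, against 16 and 23 in the IgG libraries, a log2 fold change of 1.54 (SE 0.44; edgeR quasi-likelihood adjusted p = 0.691). It was thus a low gene, with a counting error of 25% at 16 tags. Ceacam12 overlapped at 13.4 and 10.4 CPM, against 11.5 and 4.76 CPM in the IgG libraries, and Ceacam19 at 0.980 and 1.94 CPM, against 3.53 and 0.804 CPM. Neither Ceacam18 nor Ceacam20 was called by DESeq2 (adjusted p = 0.527 and 0.117) or by edgeR's exact test (adjusted p = 0.333 and 0.206).

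Enzymes that build the glycans read by galectins were examined next. Of 25 listed, 23 were tested, of which 14 were higher and 2 lower without overlap (19.7% and 18.7% of all genes), with a median log2 fold change of 0.51, and 0 passed the quasi-likelihood test in either direction. Mgat4c, of the family that adds a branch to N-glycans, stood at 188 and 161 CPM in the MAdCAM1 libraries, against 46.3 and 40.6 CPM in the IgG libraries. Mgat4b, the N-glycan branching enzyme of the same family, stood at 62.6 and 70.9 CPM, against 38.6 and 34.0 CPM in the IgG libraries. B3galt5, a β1,3-galactosyltransferase, stood at 73.9 and 76.5 CPM, against 21.8 and 10.1 CPM in the IgG libraries. Fut8, which adds the core fucose, stood at 98.2 and 94.2 CPM, against 63.2 and 56.65 CPM in the IgG libraries. These 4 were named because they had the smallest p of the list. All were called by DESeq2 (adjusted p of 5.93e-16, 0.0201, 0.000126 and 0.0486 in the order named), and Mgat4c and B3galt5 also by edgeR's exact test (adjusted p of 3.04e-08 and 0.000754). Over all genes DESeq2 called 1.53% higher and the exact test 1.06%.

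Further enzymes were chosen for naming after their values were seen. B3gnt7, which extends N-acetyllactosamine chains, stood at 297.3 and 262 CPM in the MAdCAM1 libraries, against 47.75 and 11.01 CPM in the IgG libraries. DESeq2 called it as well (adjusted p = 9.53e-05), as did edgeR's exact test (adjusted p = 0.00736). The 2 enzymes lower without overlap follow. Mgat3, which adds the bisecting branch, stood at 4.90 and 10.1 CPM in the MAdCAM1 libraries, against 20.55 and 11.8 CPM in the IgG libraries. The sialyltransferase St3gal1 stood at 10.99 and 9.91 CPM, against 12.9 and 20.0 CPM in the IgG libraries. Mgat5, whose branch carries many galectin ligands, stood at 132 and 120 CPM, against 117 and 77.8 CPM in the IgG libraries (log2 fold change 0.38, SE 0.24; edgeR quasi-likelihood adjusted p = 0.818).

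Genes for proteins that galectins bind mostly overlapped between the groups. Of 25 listed, 23 were tested, of which 4 were higher and 0 lower without overlap (19.7% and 18.7% of all genes), with a median log2 fold change of 0.14, and 0 passed the quasi-likelihood test. The membrane mucin Muc1 stood at 28.9 and 21.6 CPM in the MAdCAM1 libraries, against 6.20 and 9.46 CPM in the IgG libraries, and was called by DESeq2 (adjusted p = 0.00412) and by edgeR's exact test (adjusted p = 0.0189). The surface peptidase Dpp4 stood at 30.5 and 17.2 CPM, against 8.54 and 11.6 CPM in the IgG libraries. Tgfbr2 and the lysosomal membrane gene Lamp2 overlapped, Lamp2 at 839.5 and 500.5 CPM, against 634 and 1700 CPM in the IgG libraries.

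Genes listed for Ceacam1 binding and signalling had 4 higher and 2 lower without overlap of 18 tested (19.7% and 18.7% of all genes). The median log2 fold change of the list was 0.11, with 0 calls by the quasi-likelihood test. Whether each listed gene, such as Pigr or Cd177, acts with Ceacam1 was not tested. The IgA transporter Pigr stood at 657 and 588 CPM in the MAdCAM1 libraries, against 303 and 197 CPM in the IgG libraries. It was called by DESeq2 (adjusted p = 0.00144) and by edgeR's exact test (adjusted p = 0.0314). The surface protein gene Cd177 stood at 223 and 251 CPM, against 158 and 83.4 CPM in the IgG libraries, and the lipopolysaccharide receptor Tlr4 at 21.5 and 33.5 CPM, against 18.7 and 17.4 CPM in the IgG libraries. The phosphatases that dock on Ceacam1, Ptpn6 and Ptpn11, were named after their values were seen and overlapped. Ptpn11 stood at 80.9 and 83.3 CPM in the MAdCAM1 libraries, against 81.3 and 86.6 CPM in the IgG libraries. Havcr2, the Tim-3 receptor bound by galectin-9 and Ceacam1, was low at 1.33 and 4.73 CPM, against 2.96 and 1.86 CPM in the IgG libraries.

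The genes whose profiles were most like those of the members are given as a description over 4 libraries, among 9723 candidates with a mean of at least 10 CPM. Likeness is the Euclidean distance of log2 CPM after centring each gene. For Lgals4 the nearest were Slc35a1 (distance 0.0628), Ptprh (0.106) and Tmem253 (0.107), and for Lgals3 Ahnak (0.126), Anxa3 (0.142) and Rhof (0.171). Ahnak, for example, stood at 291 and 326 CPM in the MAdCAM1 libraries, against 357.5 and 115 CPM in the IgG libraries. Nearest to Lgals9 were Cab39l (0.0173), Capns1 (0.0403) and Oip5os1 (0.0489).

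For Lgals1 the nearest were Rac2 (0.111), Coro1a (0.134) and Ccn2 (0.165). Rac2, a GTPase of blood cells, stood at 11.8 and 42.15 CPM in the MAdCAM1 libraries, against 15.4 and 21.6 CPM in the IgG libraries. Nearest to Ceacam1 were Paqr4 (0.0612), Tmem45b (0.0943) and Grtp1 (0.100), and to Ceacam10 Kdelr3 (0.165), Clic6 (0.177) and Car9 (0.192). No member was among the nearest 3 of another.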

How the data were processed

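Colon tumours from 4 mice were measured by CAGE. Per the labels' protocols, the authors used BWA 0.7.17 to align tags to GRCm39, then HISAT2 2.0.5 for those left unmapped, clustered them with RECLU and used bedtools 2.12.0 and edgeR 3.22.5. The deposited file holds raw tag counts per gene. How clusters became genes is not given in the sources used here. No column was left out (0 unused).

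Of 14979 genes, 14331 passed filterByExpr and were scaled by TMM. The comparison of MAdCAM1 with IgG used edgeR 4.0.16 (R 4.3.3), the robust quasi-likelihood test without a block, adjusted by Benjamini-Hochberg over all genes. The common biological coefficient of variation was 0.322. SEs are the log2 fold change over the root of F, and intervals use the fitted degrees of freedom. Ratios added 0.5 tags. Tests were also run on simulated data, and the outcome is not reported here. Tried instead were other scalings (library size, upper quartile, RLE), all genes unfiltered or those reaching 1 CPM in 2 libraries, omission of each library, a replicate block, 2 added tags for ratios, edgeR's exact test, DESeq2 1.42.0 and limma-voom (limma 3.58.1). Coordinates are from GENCODE M39.

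Members and lists were chosen with earlier results of these data known. Named were all members, the other galectins and Ceacams, up to 4 genes per related list with the smallest p, and the 3 nearest profiles per member; 1 gene under this rule is not reported here.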

Additional observations from a re-analysis of the deposited data

How the results depend on the processing

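The count of called genes was 0 under all alternatives but DESeq2 (239) and edgeR's exact test (161). Those tools also called Lgals4 (log2 fold changes 1.46 by DESeq2 and 1.47 by the exact test) and Ceacam10 (1.23 by each). Leaving out each library gave 0 calls, with log2 fold changes of −0.64 to 1.07 for Lgals1, −0.20 to 1.34 for Lgals3, 1.09 to 1.96 for Lgals4, −0.18 to 0.34 for Lgals9, 0.68 to 1.40 for Ceacam1 and 1.06 to 1.38 for Ceacam10. Lgals9 also changed sign with library size scaling (−0.031). Under this scaling the median log2 fold change over all genes was −0.0985, against −0.0012 in the main fit. Over the same omissions the difference of log2 ratios was 0.44 to 2.16 for Lgals4 to Lgals1, −0.67 to 1.34 for Lgals3 to Lgals1, −0.84 to 0.54 for Lgals9 to Lgals1 and −0.49 to 0.15 for Ceacam1 to Ceacam10. The replicate numbers belong to different mice. Deviations of IgG 1 and MAdCAM1 1 from their group means correlated at −0.122 across genes. With 2 libraries a group, this value cannot show whether libraries of the same number were handled together, which was not tested. With the replicate block 0 genes were called (Lgals4 1.53, Ceacam10 1.22), and a crossed pairing, added after seeing the data, also called 0. With 2 mice a group, the intervals and not the tag counts limit what can be seen.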
